A study of Homo sapiens with 36 samples.

Results

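The 6 libraries described here came from resting THP-1 monocytes carrying a short hairpin RNA against NR4A3 (shNR4A3), 3 of them held at 10% CO2 and 3 at 5% CO2, of 36 libraries in the study. They were chosen by their titles alone, without use of any measured value. THP-1 is an established human monocytic leukaemia line, and the hairpin was delivered by lentivirus. Cells were moved into gas chambers at 5% or 10% CO2 in DMEM that was buffered so that pH would not follow the gas, and were collected after 4 h without LPS, the bacterial lipopolysaccharide given to other samples. Polyadenylated RNA was sequenced in 3 replicates of each condition. The comparison libraries shared the cell line, medium and time: resting cells with a non-target hairpin (shNT), resting cells with a hairpin against NR4A2 (shNR4A2), and shNR4A3 cells given 2.5 µg/mL LPS for the last 2 h. The labels did not say whether a line was a pool or 1 clone. The replicates are described as individual experiments, without a statement on whether libraries of the same number were run together, and p-values measure the spread between these libraries.

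NR4A3 belongs with NR4A1 and NR4A2 to a small family of orphan nuclear receptors that bind DNA as single proteins at a short element called the NBRE, and whose genes are switched on within minutes to hours by inflammatory and stress signals. Hypercapnia is a raised level of carbon dioxide in blood or tissue, as occurs in severe lung disease. In immune cells it is known for dampening innate immune and NF-kB-driven transcription, and CO2 is hydrated to bicarbonate and protons by carbonic anhydrases, which ties it to acid-base transport. The question of the comparison was which transcripts followed CO2 in unstimulated cells when NR4A3 had been depleted.

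Totals were 16566072 to 18039169 counts at 5% CO2 and 16568967 to 23844486 at 10% CO2. Of 22 monocyte markers, 21 were detected in every library, led by LYZ, FCER1G and SPI1 (means of 902, 707 and 673 TPM, transcript levels scaled by gene length), and FCN1 was near 0. The replicate 2 library at 5% CO2 stood apart on the first principal component (-46.1, against -10.1 and 4.95 for its group and 7.21 to 29.2 at 10% CO2), and it had the fewest genes with a count (23149, against 26312 to 29151) and the lowest share of mitochondrial counts (1.05%, against 1.55% to 3.18%). Bulk RNA cannot tell fewer cells in a state from less RNA per cell.

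NR4A3 itself, the hairpin's target, was nearly silent in resting cells. Its raw counts were 5, 3 and 1 at 5% CO2 and 6, 8 and 8 at 10% CO2, and in shNT cells 20, 21 and 17 at 5% CO2 and 14, 6 and 9 at 10% CO2. At 5% CO2 NR4A3 was lower than in shNT cells (log2 fold change -2.47, SE 0.53, edgeR adjusted p = 0.00982, but -2.32 and 0.0516 without replicate 2 of the shNT cells). At 10% CO2 the counts overlapped and a depletion was not detectable (log2 fold change -0.39, SE 0.49, adjusted p = 0.735). In resting cells the depletion was therefore measured at 5% CO2 only, at counts of 1 to 21 a library. With LPS, counts at 10% CO2 were 435, 715 and 578 in shNR4A3 cells and 1065, 1188 and 1560 in shNT cells. At 5% CO2 with LPS they were 582, 516 and 628 in shNR4A3 cells and 1121, 1132 and 1254 in shNT cells. These differences with LPS were not tested.

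The other family members were more abundant. In CPM, the count scaled to library size, NR4A1 was at 8.38, 16.3 and 10.4 CPM at 5% CO2 and 6.87, 5.79 and 7.47 CPM at 10% CO2, and NR4A2 was at 2.85, 3.15 and 3.66 CPM at 5% CO2 and 2.03, 2.54 and 2.39 CPM at 10% CO2. For both, all 3 libraries at 10% CO2 lay below the 3 at 5%, as in 10.1% of all genes tested. Neither passed edgeR's test (log2 fold change -0.80, SE 0.22, adjusted p = 0.0878 for NR4A1, and log2 fold change -0.46, SE 0.22, adjusted p = 0.294 for NR4A2), while DESeq2 gave NR4A1 an adjusted p of 0.0193. NR4A3 was at 0.285, 0.182 and 0.0555 CPM at 5% CO2 and 0.368, 0.333 and 0.39 CPM at 10% CO2 (log2 fold change 1.04, SE 0.64, edgeR adjusted p = 0.441). Its 3 libraries at 10% CO2 lay above the 3 at 5%, as in 11.9% of all genes tested. At 10% CO2, NR4A1 was also lower in shNR4A3 than in shNT cells (log2 fold change -0.76, SE 0.16, edgeR adjusted p = 0.00566), in a comparison that called 1213 of 17720 genes. At 5% CO2 such a difference in NR4A1 was not detectable (log2 fold change -0.34, SE 0.23, edgeR adjusted p = 0.475).

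In all, 200 genes passed edgeR's test at an adjusted p under 0.05, 99 higher and 101 lower at 10% CO2, which is 1.13% of the 17720 genes tested (0.559% higher and 0.57% lower). The changes were small. The median size was 0.52 on the log2 scale in the higher genes and 0.49 in the lower ones, and 30 and 35 of them reached a fold of 1.5. Protein-coding genes made up 97 of the 99 and 98 of the 101, against 78.4% of all genes tested. The genes that rose were led in size, among those with a mean of at least 5 CPM, by RIOX2, SERPINB2, TBC1D9, HSPA4L and POLR3G, and those that fell by RFX8, ARTN, THBS1, REC8 and SPSB1, and the smallest adjusted p belonged to SLC6A6. Groups that did not overlap were common, at 22.0% of all genes tested (11.9% higher and 10.1% lower). All 99 higher and 101 lower genes were among them, so a lack of overlap does not set 1 called gene apart from another. Over all genes tested, 8977 log2 fold changes were positive and 8722 negative. An unadjusted p under 0.05 by edgeR was found for 2956 genes (16.7%).

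**Figure D1:**
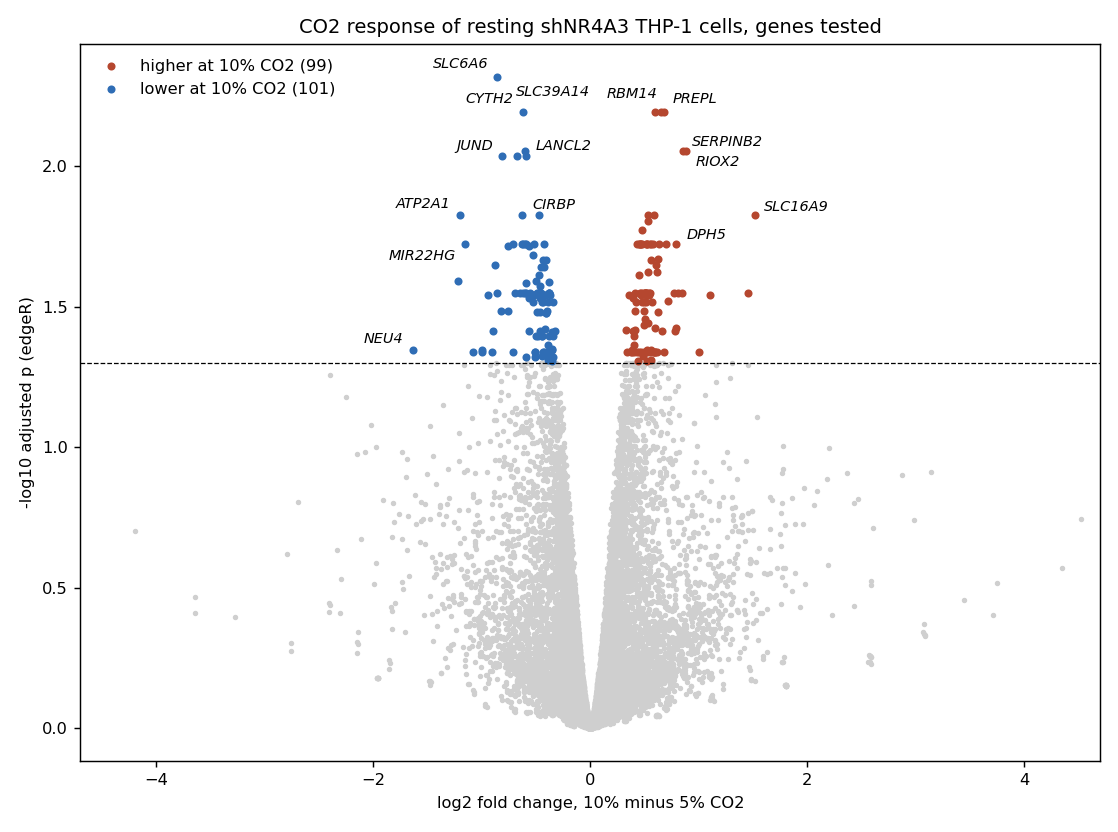
Each point is 1 of 17720 genes, with the log2 fold change of 10% over 5% CO2 in resting shNR4A3 cells on the x axis and -log10 of edgeR's adjusted p on the y axis; the dashed line marks an adjusted p of 0.05. The 99 higher and 101 lower genes sit mostly within 1 log2 unit of 0, and SLC6A6 stands highest.

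The number of calls depended on single libraries. It was 41 without replicate 2 at 5% CO2, the library that stood apart, and 70 and 106 without replicates 1 and 3 at 10% CO2. Without replicate 2 at 10% CO2 no gene passed edgeR's test (1777 had an unadjusted p under 0.05), and the 200 genes had adjusted p-values of 0.0622 to 0.331 there. Leaving out replicate 1 at 5% CO2 gave 365 calls, and leaving out replicate 3 gave 236. All 200 genes kept their sign and an unadjusted p under 0.05 in each of these 6 settings. They were selected on these same libraries and their groups did not overlap, so the kept signs are not separate support. Of the 200, 29 stayed past the threshold in each of the 5 settings other than the loss of replicate 2 at 10% CO2. These 29 are called the 29 steadiest genes below. With the replicate number as a block the count was 1073, 538 higher and 535 lower, but it was not settled whether libraries of the same number belong together. DESeq2 called 550 (4.55%) of the 12100 genes it gave an adjusted p, 2.11% higher and 2.44% lower, including 198 of the 200 (it gave the other 2 none).

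**Figure D2:**
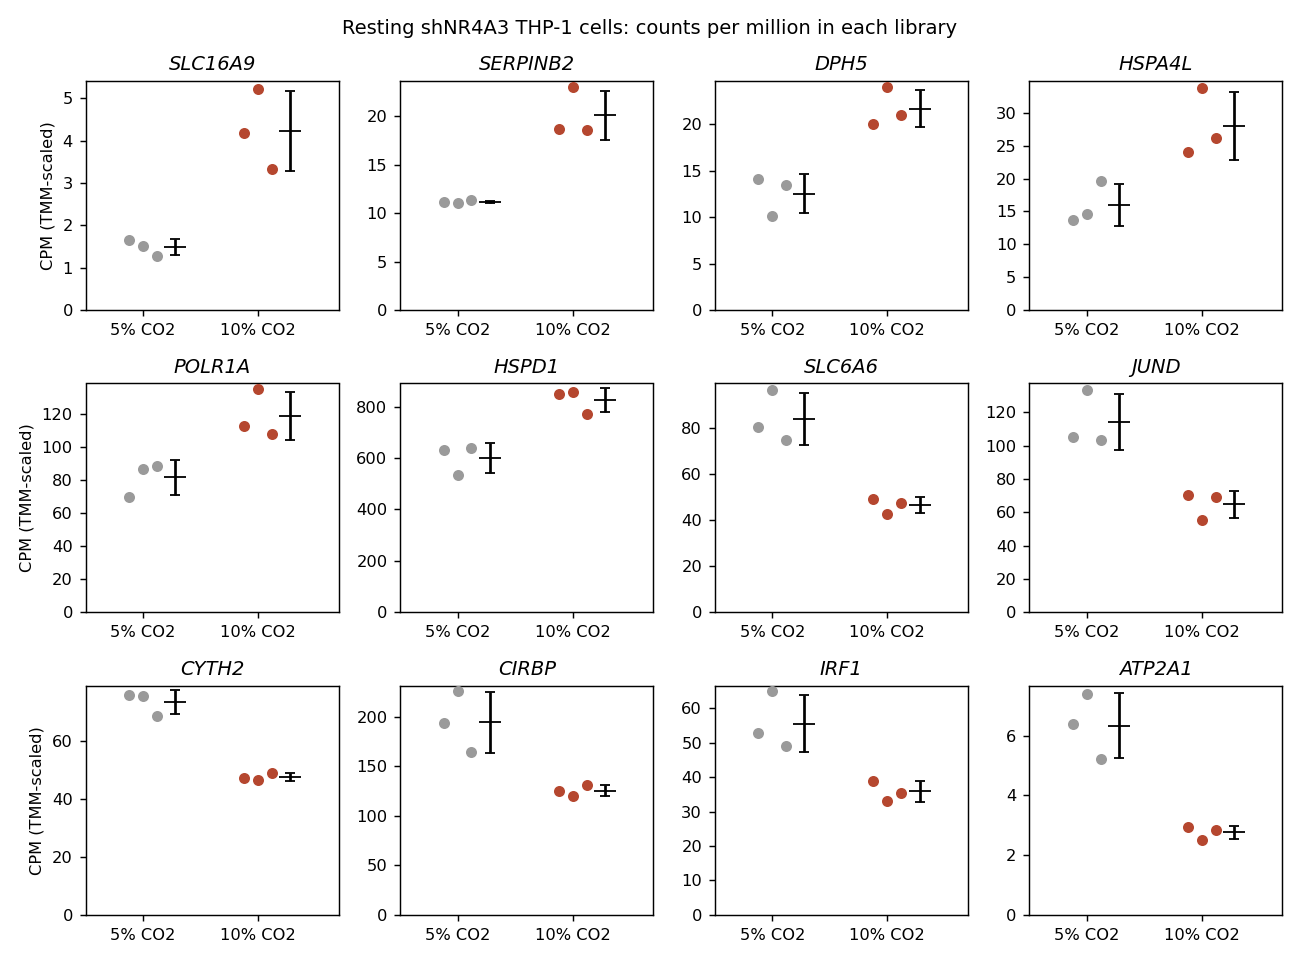
TMM-scaled CPM in each library for 12 of the genes that passed the test, with grey points at 5% CO2, red points at 10% CO2, and the mean and SD of 3 libraries beside them. In all 12, as in every called gene, the 3 libraries of 1 condition lie wholly above the 3 of the other.

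Some partners of the chaperones HSP70 and HSP90 rose at 10% CO2. HSPA4L, an Hsp110 family member that recharges HSP70, was at 13.7, 14.6 and 19.7 CPM at 5% CO2 and 24, 33.8 and 26.3 CPM at 10% CO2 and rose 1.75-fold (log2 fold change 0.81, SE 0.15, adjusted p = 0.0283). FKBP4, an immunophilin that works on HSP90 clients such as steroid receptors, was at 30.8, 32.2 and 33.5 CPM at 5% CO2 and 50.3, 51.9 and 43.1 CPM at 10% CO2 and rose 1.51-fold (log2 fold change 0.59, SE 0.10, adjusted p = 0.0149). Every library at 10% CO2 was above every one at 5% for both, as for every gene called higher. AHSA1, which activates the ATPase of HSP90, was at 104, 88.5 and 92.9 CPM at 5% CO2 and 137, 148 and 121 CPM at 10% CO2 and rose 1.43-fold (log2 fold change 0.51, SE 0.089, adjusted p = 0.0189), and FKBP4 was among the 29 steadiest genes. Of the DNAJ genes, whose products work with HSP70, 3 outside the lists were called and went both ways: DNAJA4 had a log2 fold change of 0.63 (adjusted p = 0.0189), DNAJC10 one of 0.37 (adjusted p = 0.046) and DNAJB12 one of -0.39 (adjusted p = 0.0304).

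Over the list of heat shock proteins and co-chaperones, 3 of 34 genes tested were called higher and 0 lower. The share called higher over all genes tested was 0.559%. Of the 34, 28 had a positive log2 fold change, and the median was 0.15, against 0.00 over all genes tested. Another 5 of the 34 passed DESeq2's test. The abundant chaperones had large differences and a wide spread: HSPA8, the constitutive HSP70, was at 2156, 1430.1 and 1926 CPM at 5% CO2 and 2785, 2884 and 2386 CPM at 10% CO2 (log2 fold change 0.55, SE 0.14, adjusted p = 0.103), and HSPH1 was at 164, 103 and 160.5 CPM at 5% CO2 and 298, 299.6 and 230.3 CPM at 10% CO2 (log2 fold change 0.95, SE 0.20, adjusted p = 0.0821). Replicate 2 at 5% CO2, which was low in the mitochondrial share, was also the lowest library for both. DESeq2 gave HSPA8 an adjusted p of 0.0014 and HSPH1 one of 0.00398. DNAJA1 had a log2 fold change of 0.61 (edgeR adjusted p = 0.1) and HSP90AA1 one of 0.37 (adjusted p = 0.0701), while the constitutive HSP90AB1 was at 0.13 (adjusted p = 0.392). The inducible HSPA1A, whose counts can be shared with its near-identical copy, overlapped between the groups (log2 fold change 0.57, SE 0.22, adjusted p = 0.232). The summed level of the list was 8242 ± 552 TPM at 5% CO2 and 9826 ± 288 TPM at 10% CO2 (SD, n = 3; exact two-sided permutation p = 0.1, the smallest that 3 against 3 allows).

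Chaperones of other compartments differed from one another. HSPD1, the mitochondrial chaperonin HSP60 and the most abundant gene that rose, was at 629, 533 and 639 CPM at 5% CO2 and 848, 856 and 770.0 CPM at 10% CO2 and rose 1.37-fold (log2 fold change 0.46, SE 0.082, adjusted p = 0.0189). Its partner HSPE1 was at 103, 81 and 88.4 CPM at 5% CO2 and 123, 121 and 110.1 CPM at 10% CO2, with no overlap and an adjusted p of 0.0512 by edgeR and 0.015 by DESeq2. All 14 mitochondrial chaperones and proteases had a positive log2 fold change (median 0.13). Of these HSPD1 alone was called, against 1.13% of all genes tested. None of the 14 genes of the cytosolic chaperonin TRiC and its helper prefoldin was called by edgeR (8 had an unadjusted p under 0.05, and DESeq2 called 3). Of the 14, 10 did not overlap and were higher, against 11.9% of all genes tested, and the median was 0.18. CCT3 was the closest of the abundant ones, at 498, 458 and 484 CPM at 5% CO2 and 585, 601 and 567 CPM at 10% CO2 (log2 fold change 0.28, SE 0.069, adjusted p = 0.0544). In the endoplasmic reticulum, SERPINH1, the collagen chaperone HSP47, was at 66.7, 76.3 and 75.5 CPM at 5% CO2 and 96.6, 106 and 102 CPM at 10% CO2 and rose 1.39-fold (log2 fold change 0.48, SE 0.082, adjusted p = 0.0189). It was the only call among the 23 listed chaperones and unfolded protein response genes of that compartment, whose median was 0.00. HSPA5, the main one, was at 703, 629 and 682 CPM at 5% CO2 and 643, 609 and 658 CPM at 10% CO2.

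Genes of ribosome production formed the next group. POLR1A and POLR1B, the 2 large catalytic subunits of RNA polymerase I, which transcribes the precursor of ribosomal RNA, both rose. POLR1A was at 69.7, 87.1 and 88.6 CPM at 5% CO2 and 113, 135 and 108 CPM at 10% CO2, a rise of 1.45-fold (log2 fold change 0.54, SE 0.11, adjusted p = 0.0283), and POLR1B was at 45.8, 43.5 and 56.1 CPM at 5% CO2 and 67.8, 74.3 and 67.4 CPM at 10% CO2, a rise of 1.44-fold (log2 fold change 0.53, SE 0.10, adjusted p = 0.0238). The groups did not overlap for either subunit. Both lost the call without replicate 2 at 5% CO2 or replicate 1 at 10% CO2. The 17 polymerase I genes tested had a median of 0.14, with 2 called higher and 0 lower, against 0.559% called higher over all genes tested. Their summed level was 894 ± 45.6 TPM at 5% CO2 and 901 ± 27.7 TPM at 10% CO2 (SD, n = 3), so the rise in these subunits did not show in the sum.

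Among 80 genes of ribosomal RNA processing and assembly, 3 were called higher and 0 lower, and 37 did not overlap and were higher. Over all genes tested, 0.559% were called higher and 11.9% did not overlap and were higher. Of the 80, 71 had a positive log2 fold change, and the median was 0.16. NAT10, the acetyltransferase that modifies the small-subunit RNA, was at 94.2, 84.2 and 89.6 CPM at 5% CO2 and 119, 144 and 123 CPM at 10% CO2 and rose 1.44-fold (log2 fold change 0.53, SE 0.087, adjusted p = 0.0157). URB1 and WDR12, assembly factors of the large subunit, rose by log2 fold changes of 0.50 (SE 0.10, adjusted p = 0.0327) and 0.42 (SE 0.087, adjusted p = 0.0304). DESeq2 called 12 of the 80, all higher. RRP9, a component of the U3 particle that guides early cleavage, was at 51.5, 47.7 and 46.3 CPM at 5% CO2 and 66.8, 68.2 and 54.3 CPM at 10% CO2 and had an adjusted p of 0.0633 by edgeR and 0.0276 by DESeq2. The most abundant nucleolar genes showed little: NPM1 had a log2 fold change of 0.058 (adjusted p = 0.745) and NCL one of 0.02 (adjusted p = 0.929).

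The ribosomal proteins themselves did not follow. None of 45 large-subunit and 32 small-subunit genes was called by edgeR (0 and 2 had an unadjusted p under 0.05) or by DESeq2, and the medians were -0.069 and -0.083, with 41 of 45 and 26 of 32 negative. Ribosomal protein genes took 7.02% ± 0.302 of counts at 5% CO2 and 6.77% ± 0.265 at 10% CO2 (SD, n = 3; exact permutation p = 0.4). The summed small-subunit level was 45488 ± 2873 TPM at 5% CO2 and 42204 ± 250 TPM at 10% CO2 (SD, n = 3). Its exact permutation p was 0.1, the smallest that 3 against 3 allows. For the large subunit the sums were 50630 ± 2132 and 47818 ± 372 TPM (SD, n = 3; exact permutation p = 0.2). In resting shNT cells the same medians were 0.071 and 0.10. That difference in sign was not tested over the lists, and no single gene differed between the lines in edgeR's test.

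Translation factors held 2 calls, 1 of them steady. DPH5 makes diphthamide, the modified histidine on elongation factor 2 that diphtheria toxin attacks. It was at 14.1, 10.1 and 13.4 CPM at 5% CO2 and 20.1, 24 and 21 CPM at 10% CO2 and rose 1.73-fold (log2 fold change 0.79, SE 0.13, adjusted p = 0.0189), and it was among the 29 steadiest genes. EIF2B3, a subunit of the exchange factor that recharges initiation factor 2, was at 27.9, 23.5 and 25 CPM at 5% CO2 and 35.8, 36 and 35.5 CPM at 10% CO2 and rose 1.4-fold (log2 fold change 0.49, SE 0.10, adjusted p = 0.0283). EIF2B3 kept the call in 1 of the other 5 leave-out settings. These were the 2 calls among 23 genes of elongation, diphthamide and initiation (median 0.074), against 1.13% called over all genes tested. EEF1A1, the most abundant of the 23, was at 16631, 12889 and 15519 CPM at 5% CO2 and 16806, 15627 and 15237 CPM at 10% CO2. Of 20 nuclear-encoded cytosolic tRNA synthetases none was called by edgeR (7 unadjusted) and 2 were by DESeq2, with 18 positive and a median of 0.13. POLR3G, a subunit of RNA polymerase III, which makes transfer RNAs, rose 1.73-fold (log2 fold change 0.79, SE 0.17, adjusted p = 0.0377), and MRM1, a methyltransferase of mitochondrial ribosomal RNA, rose 1.7-fold (log2 fold change 0.77, SE 0.15, adjusted p = 0.0283). RIOX2, a ribosomal oxygenase, was at 10.8, 9.75 and 10.5 CPM at 5% CO2 and 19.6, 21 and 16.6 CPM at 10% CO2 and had the largest rise of the steadiest genes after SLC16A9, 1.84-fold (log2 fold change 0.88, SE 0.13, adjusted p = 0.00884).

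Enzymes that make nucleotides and proline rose as well. PPAT, which commits glutamine to purine synthesis, was at 31.9, 25.1 and 35 CPM at 5% CO2 and 44.4, 49.5 and 39.9 CPM at 10% CO2 and rose 1.45-fold (log2 fold change 0.54, SE 0.12, adjusted p = 0.0456). GART, which acts further along the same pathway and uses formyl-folate, was at 78.7, 82.2 and 87.4 CPM at 5% CO2 and 110.2, 123 and 113 CPM at 10% CO2 and rose 1.39-fold (log2 fold change 0.48, SE 0.079, adjusted p = 0.0168). CAD, which starts pyrimidine synthesis, was at 62.9, 70.4 and 66.9 CPM at 5% CO2 and 87.8, 114 and 92.3 CPM at 10% CO2 and rose 1.47-fold (log2 fold change 0.56, SE 0.10, adjusted p = 0.0189). The groups did not overlap for any of these, and GART and CAD were among the 29 steadiest genes. PPAT, GART and ALDH1B1, a mitochondrial aldehyde dehydrogenase that rose 1.44-fold (log2 fold change 0.53, SE 0.085, adjusted p = 0.0149), were the 3 calls among 17 genes of the one-carbon list (median 0.12). The share called over all genes tested was 1.13%.

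ALDH18A1 and PYCR1 make proline from glutamate, by way of pyrroline-5-carboxylate. ALDH18A1 was at 50, 55.8 and 64.9 CPM at 5% CO2 and 69.5, 83.6 and 79.7 CPM at 10% CO2 and rose 1.37-fold (log2 fold change 0.45, SE 0.10, adjusted p = 0.046), and PYCR1 was at 59.5, 68.7 and 56.8 CPM at 5% CO2 and 79.7, 88.1 and 76.3 CPM at 10% CO2 and rose 1.32-fold (log2 fold change 0.40, SE 0.091, adjusted p = 0.046). Both lost the call in 4 of the other 5 leave-out settings. They were the 2 calls among 29 genes of ATF4 targets and amino acid synthesis (median 0.098), against 1.13% called over all genes tested. The other members of that list were mixed: 19 of 29 were positive, ATF4 itself was at 647, 622 and 634 CPM at 5% CO2 and 655, 567 and 622 CPM at 10% CO2 (log2 fold change -0.046, SE 0.073, adjusted p = 0.812), and the serine enzyme PSAT1 had a log2 fold change of 0.22 (adjusted p = 0.209). In the list of MYC, its partners and a few targets, CAD was higher and MXD4, which competes with MYC for its partner MAX, was at 104, 126 and 98 CPM at 5% CO2 and 82.2, 78.3 and 76.5 CPM at 10% CO2 and fell 1.38-fold (log2 fold change -0.47, SE 0.092, adjusted p = 0.0283). MYC was flat, at 308, 322 and 298 CPM at 5% CO2 and 304, 305 and 303 CPM at 10% CO2 (log2 fold change -0.026, SE 0.069, adjusted p = 0.898). ODC1, which starts polyamine synthesis, was at 184, 195 and 222 CPM at 5% CO2 and 231, 279 and 277 CPM at 10% CO2 and just missed the threshold (log2 fold change 0.39, SE 0.09, adjusted p = 0.05).

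**Figure D3:**
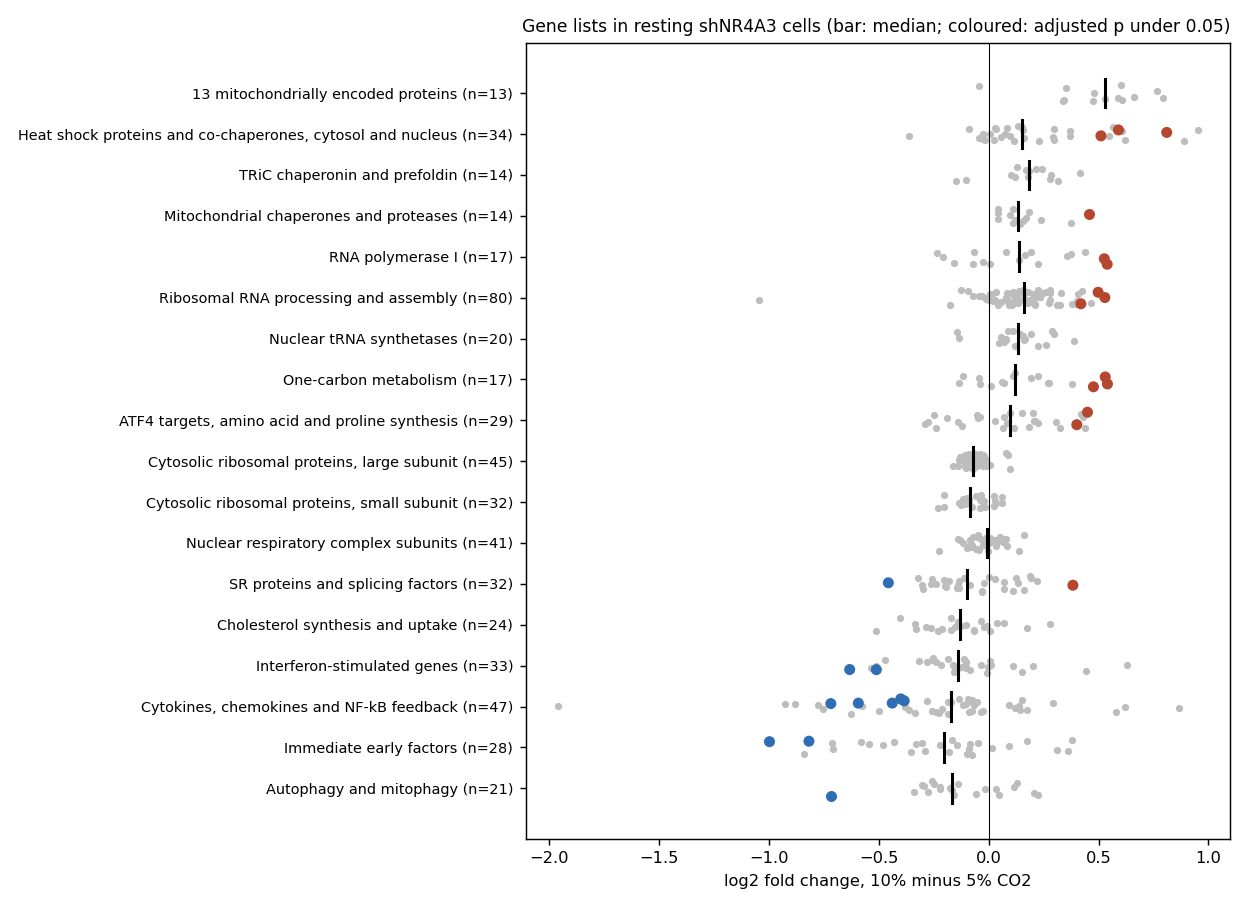
Log2 fold change of 10% over 5% CO2 for each tested member of 18 gene lists in resting shNR4A3 cells; black bars are list medians, red and blue points passed edgeR's test, and grey points did not. Chaperone, RNA polymerase I and ribosomal RNA processing lists have calls on the higher side alone, and the immediate early, cytokine and interferon lists on the lower side alone.

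Membrane carriers gave the largest rise and the most significant fall. SLC16A9 (ENSG00000165449, chr10:59650761-59736002 in GRCh38), a carnitine carrier of the monocarboxylate transporter family, was a low transcript at 1.65, 1.51 and 1.28 CPM at 5% CO2 and 4.17, 5.21 and 3.32 CPM at 10% CO2, or raw counts of 29, 25 and 23 against 68, 125 and 68. It rose 2.87-fold (log2 fold change 1.52, SE 0.24, adjusted p = 0.0149) and was among the 29 steadiest genes. SLC6A6 (ENSG00000131389, chr3:14402576-14489349), the taurine transporter, was at 80.7, 96.8 and 75.1 CPM at 5% CO2 and 49.4, 42.6 and 47.6 CPM at 10% CO2. It fell 1.81-fold (log2 fold change -0.86, SE 0.10, adjusted p = 0.0048), and its adjusted p stayed at or under 0.0151 in the 5 other leave-out settings. The groups overlapped for neither carrier. SLC16A9 was the 1 call of 14 monocarboxylate transporters tested, against 1.13% called over all genes tested. The lactate carriers SLC16A1 and SLC16A3 had log2 fold changes of 0.31 (adjusted p = 0.0662) and -0.22 (adjusted p = 0.18).

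An importer and 2 binders of zinc rose. SLC39A14, the zinc and iron importer ZIP14, was at 72.7, 78.7 and 74.6 CPM at 5% CO2 and 113, 118 and 109 CPM at 10% CO2 and rose 1.51-fold (log2 fold change 0.59, SE 0.076, adjusted p = 0.00643). MT1X, a metallothionein, was at 21.4, 18.3 and 19.1 CPM at 5% CO2 and 27.9, 29.2 and 25.5 CPM at 10% CO2 and rose 1.41-fold (log2 fold change 0.49, SE 0.11, adjusted p = 0.0368), and MT1G was at 12.1, 14.4 and 10.4 CPM at 5% CO2 and 18.6, 18.5 and 17.4 CPM at 10% CO2 and rose 1.48-fold (log2 fold change 0.56, SE 0.13, adjusted p = 0.0491). MT1X and MT1G each kept the call in 1 of the other 5 leave-out settings, and SLC39A14 kept it in all 5. Metallothionein genes are near-identical copies, so the split of counts between them is uncertain. With SLC6A6 the 3 made up the 4 calls of 24 genes in the list of taurine, zinc and sialic acid carriers and metallothioneins. That list had 18 positive and a median of 0.11, and the share called over all genes tested was 1.13%.

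Of the genes that handle CO2, bicarbonate and protons directly, few were called. SLC4A7, a sodium-bicarbonate cotransporter that brings base into the cell, was at 9.47, 11.5 and 13.9 CPM at 5% CO2 and 16.3, 20.6 and 20.2 CPM at 10% CO2 and rose 1.64-fold (log2 fold change 0.71, SE 0.15, adjusted p = 0.0302). It was the 1 call of 19 bicarbonate transporters and sodium-proton exchangers (median 0.040), against 1.13% called over all genes tested. The anion exchanger SLC4A2 was at 140.3, 155 and 145 CPM at 5% CO2 and 149.6, 144 and 155 CPM at 10% CO2. None of 9 carbonic anhydrases tested was called by edgeR (1 unadjusted) or DESeq2. CA2, by far the most abundant of them at 4736 TPM, was at 2889.8, 2624 and 2269.9 CPM at 5% CO2 and 3269.6, 3168 and 2702 CPM at 10% CO2 (log2 fold change 0.23, SE 0.093, adjusted p = 0.222). GPR132, a receptor related to the proton sensors and active on oxidised fatty acids and lactate, was at 54.8, 57.3 and 48.5 CPM at 5% CO2 and 43, 35.1 and 38.2 CPM at 10% CO2 and fell 1.38-fold (log2 fold change -0.47, SE 0.10, adjusted p = 0.0331). Its relative GPR65 overlapped between the groups (log2 fold change 0.59, SE 0.25, adjusted p = 0.253).

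Of the listed calcium handling genes 2 were called, both for proteins of the endoplasmic reticulum membrane. ATP2A1 (SERCA1), the calcium pump best known from skeletal muscle, was at 6.39, 7.39 and 5.22 CPM at 5% CO2 and 2.95, 2.5 and 2.83 CPM at 10% CO2 and fell 2.3-fold (log2 fold change -1.20, SE 0.19, adjusted p = 0.0149), and ITPR1, the calcium release channel opened by inositol trisphosphate, was at 82.5, 97.9 and 86.1 CPM at 5% CO2 and 129, 133 and 106 CPM at 10% CO2 and rose 1.38-fold (log2 fold change 0.47, SE 0.10, adjusted p = 0.0287). They were the only calls of 31 calcium pumps, channels and kinases (median -0.036), against 1.13% called over all genes tested. CD38, which consumes NAD to make the calcium messenger cyclic ADP-ribose, was at 54.6, 58.1 and 45.4 CPM at 5% CO2 and 41.4, 33.3 and 33.6 CPM at 10% CO2 and fell 1.46-fold (log2 fold change -0.55, SE 0.11, adjusted p = 0.0287), the 1 call of 18 genes of NAD metabolism. HOMER1, a scaffold that binds inositol trisphosphate receptors, rose 1.6-fold (log2 fold change 0.67, SE 0.15, adjusted p = 0.046). PLA2G4A, the calcium-activated phospholipase that frees arachidonic acid, was at 4.22, 4.54 and 4.94 CPM at 5% CO2 and 8.72, 8.17 and 6.64 CPM at 10% CO2 and rose 1.71-fold (log2 fold change 0.78, SE 0.17, adjusted p = 0.0386). PLA2G4A kept the call in 1 of the other 5 leave-out settings.

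Immediate early and inflammatory genes were on the lower side without LPS. JUND, an AP-1 subunit, was at 105, 133 and 104 CPM at 5% CO2 and 70.2, 55.3 and 68.9 CPM at 10% CO2 and fell 1.76-fold (log2 fold change -0.82, SE 0.11, adjusted p = 0.00917). MAFF, a small Maf factor, was at 4.68, 6.72 and 3.94 CPM at 5% CO2 and 2.76, 2.21 and 2.73 CPM at 10% CO2 and fell 2.0-fold (log2 fold change -1.0, SE 0.23, adjusted p = 0.046). Among 28 immediate early factors 2 were called lower and 0 higher, against 0.57% called lower over all genes tested. Of the 28, 22 were negative, and the median was -0.20. JUN was at 106, 94 and 87.7 CPM at 5% CO2 and 78.1, 52.7 and 83.2 CPM at 10% CO2, with no overlap but an adjusted p of 0.218 by edgeR and 0.045 by DESeq2. BTG2, an antiproliferative early gene, was at 37, 42.3 and 44 CPM at 5% CO2 and 27.9, 24.8 and 29.1 CPM at 10% CO2 and fell 1.51-fold (log2 fold change -0.59, SE 0.10, adjusted p = 0.0189), and JUND and BTG2 were among the 29 steadiest genes.

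The NF-kB pathway was represented by its own subunits and brakes. BCL3, a nuclear IkB protein, was at 27.8, 25 and 25.7 CPM at 5% CO2 and 16.9, 12.8 and 18.2 CPM at 10% CO2 and fell 1.64-fold (log2 fold change -0.72, SE 0.13, adjusted p = 0.0189). RELB, a subunit of the alternative pathway, was at 28.9, 32.6 and 25.3 CPM at 5% CO2 and 20.3, 17.7 and 19.7 CPM at 10% CO2 and fell 1.51-fold (log2 fold change -0.59, SE 0.11, adjusted p = 0.0259). NFKBIA, the IkB that holds NF-kB in the cytoplasm, was at 100.4, 97.7 and 93.4 CPM at 5% CO2 and 76.1, 66.3 and 78.8 CPM at 10% CO2 and fell 1.32-fold (log2 fold change -0.40, SE 0.084, adjusted p = 0.0327). In each, as in every gene called lower, the highest library at 10% CO2 lay below the lowest at 5%. ZFP36, which destabilises cytokine messages, fell 1.3-fold (log2 fold change -0.38, SE 0.076, adjusted p = 0.0283), and TNFAIP2 fell 1.35-fold (log2 fold change -0.44, SE 0.09, adjusted p = 0.0304). These 5 were the calls among 47 cytokine, chemokine and NF-kB feedback genes, against 0.57% called lower over all genes tested. Of the 47, 37 were negative and the median was -0.17. None of the 5 is itself a cytokine or chemokine. TNF was at 9.24, 17.9 and 16.4 CPM at 5% CO2 and 7.61, 4.54 and 10.9 CPM at 10% CO2, a wide spread within both groups (log2 fold change -0.93, SE 0.37, adjusted p = 0.29). NFKBIA, RELB and ZFP36 lost the call without replicate 1 or 3 at 10% CO2 or replicate 2 at 5% CO2, while BCL3 was among the 29 steadiest genes.

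Interferon-stimulated genes were negative in 26 of 33 cases, with a median of -0.14, 2 called lower and 0 higher. Over all genes tested, 8722 of 17720 were negative and 0.57% were called lower. IRF1, a transcription factor of the interferon response, was at 52.8, 64.9 and 49 CPM at 5% CO2 and 39, 33.2 and 35.4 CPM at 10% CO2 and fell 1.55-fold (log2 fold change -0.63, SE 0.11, adjusted p = 0.0189), and MX2, an antiviral GTPase, was at 30.5, 36.9 and 39.6 CPM at 5% CO2 and 22, 25.1 and 27.9 CPM at 10% CO2 and fell 1.42-fold (log2 fold change -0.51, SE 0.12, adjusted p = 0.046). None of 17 genes of the LPS receptor and Toll-like receptor adaptors was called by edgeR (5 unadjusted) and 2 were by DESeq2, with 14 negative (median -0.096). DPP8, a protease that restrains the NLRP1 and CARD8 inflammasomes, was at 82.1, 99.6 and 78.8 CPM at 5% CO2 and 58, 58 and 64.9 CPM at 10% CO2 and fell 1.44-fold (log2 fold change -0.53, SE 0.10, adjusted p = 0.0207), the 1 call of 18 inflammasome genes. NLRP3 was at 168, 191 and 164 CPM at 5% CO2 and 153, 132 and 138 CPM at 10% CO2, with no overlap and an adjusted p of 0.0765 by edgeR and 0.028 by DESeq2. Protease inhibitors of monocytes went both ways: SERPINB2 (plasminogen activator inhibitor 2) was at 11.1, 11.1 and 11.3 CPM at 5% CO2 and 18.7, 23.1 and 18.5 CPM at 10% CO2 and rose 1.8-fold (log2 fold change 0.85, SE 0.12, adjusted p = 0.00884), and SERPINB1, which blocks neutrophil proteases, was at 63.3, 61 and 55.9 CPM at 5% CO2 and 47, 37.3 and 46.8 CPM at 10% CO2 and fell 1.38-fold (log2 fold change -0.46, SE 0.10, adjusted p = 0.0386). With SERPINH1, which was also in that list, they made up the 3 calls of 12 serpins, against 1.13% called over all genes tested. SERPINB1 and MX2 each kept the call in 1 of the other 5 leave-out settings.

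Vesicle traffic and glycolipid genes followed. CYTH2 and CYTH1 are cytohesins, which load GTP onto the small GTPases ARF1 and ARF6. CYTH2 was at 75.7, 75.6 and 68.6 CPM at 5% CO2 and 47.1, 46.5 and 48.9 CPM at 10% CO2 and fell 1.54-fold (log2 fold change -0.62, SE 0.082, adjusted p = 0.00643), and CYTH1 was at 101, 107 and 89.9 CPM at 5% CO2 and 71.3, 53.2 and 69.7 CPM at 10% CO2 and fell 1.54-fold (log2 fold change -0.62, SE 0.11, adjusted p = 0.0189). They were the 2 calls of 18 genes in their list (median -0.061), against 1.13% called over all genes tested. ARF1 and ARF6 had log2 fold changes of -0.14 (adjusted p = 0.332) and 0.0071 (adjusted p = 0.978). A4GALT, which makes the glycolipid Gb3, was at 18.9, 25.3 and 18.3 CPM at 5% CO2 and 12.8, 11.9 and 14 CPM at 10% CO2 and fell 1.61-fold (log2 fold change -0.69, SE 0.14, adjusted p = 0.0283). NEU4, a sialidase, was near its detection limit, with raw counts of 20, 29 and 27 at 5% CO2 and 10, 8 and 10 at 10% CO2, and fell 3.11-fold (log2 fold change -1.64, SE 0.37, adjusted p = 0.0452). GABARAPL1, which conjugates to autophagosome membranes, was at 7.7, 7.93 and 8.61 CPM at 5% CO2 and 4.79, 4.38 and 5.61 CPM at 10% CO2 and fell 1.64-fold (log2 fold change -0.72, SE 0.16, adjusted p = 0.046). GABARAPL1 was the 1 call of 21 autophagy genes (15 negative, median -0.17), and like NEU4 it kept the call in 1 of the other 5 leave-out settings. TP53INP2, another protein of autophagosome formation that was in no list, fell 1.59-fold (log2 fold change -0.67, SE 0.10, adjusted p = 0.00917).

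RNA-binding proteins were split. CIRBP, the cold-inducible RNA-binding protein, was at 194, 226 and 164 CPM at 5% CO2 and 125, 120.0 and 132 CPM at 10% CO2 and fell 1.55-fold (log2 fold change -0.63, SE 0.10, adjusted p = 0.0149), while its cold-inducible relative RBM3 was at 415, 444 and 425 CPM at 5% CO2 and 367, 352 and 356 CPM at 10% CO2 (log2 fold change -0.26, SE 0.068, adjusted p = 0.0728, and 0.0154 by DESeq2). SRSF5, a splicing factor of the SR family, was at 356, 341 and 294 CPM at 5% CO2 and 230.1, 230.2 and 262 CPM at 10% CO2 and fell 1.37-fold (log2 fold change -0.46, SE 0.085, adjusted p = 0.0229). SRPK1, a kinase that phosphorylates SR proteins, was at 91.5, 103 and 105 CPM at 5% CO2 and 119.9, 144 and 126 CPM at 10% CO2 and rose 1.3-fold (log2 fold change 0.38, SE 0.087, adjusted p = 0.046), but it lost the call in each of the 6 leave-out settings. The 32 SR proteins and splicing factors had a median of -0.096, with 20 negative. RBM14, a paraspeckle protein and coactivator, was at 56.9, 59.2 and 58.4 CPM at 5% CO2 and 86.8, 103 and 83.9 CPM at 10% CO2 and rose 1.57-fold (log2 fold change 0.65, SE 0.088, adjusted p = 0.00643).

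Several of the other genes named by size or significance have no list of their own. PREPL, a prolyl endopeptidase-like protein, was at 28.2, 26.8 and 27.7 CPM at 5% CO2 and 43.3, 47.1 and 41.4 CPM at 10% CO2 and rose 1.6-fold (log2 fold change 0.67, SE 0.092, adjusted p = 0.00643). LANCL2 was at 44.6, 50 and 48 CPM at 5% CO2 and 32.2, 31.5 and 31.1 CPM at 10% CO2 and fell 1.5-fold (log2 fold change -0.59, SE 0.088, adjusted p = 0.00917), and MARCKSL1, which binds actin and calmodulin, was at 64.9, 68.6 and 60.2 CPM at 5% CO2 and 44.2, 40.1 and 43.4 CPM at 10% CO2 and fell 1.52-fold (log2 fold change -0.60, SE 0.087, adjusted p = 0.00884). Groups did not overlap in these 3, as in every called gene, and all 3 were among the 29 steadiest genes. THBS1, the matrix glycoprotein thrombospondin 1, was at 7.93, 7.75 and 10.2 CPM at 5% CO2 and 5.34, 3.38 and 5.32 CPM at 10% CO2 and fell 1.86-fold (log2 fold change -0.90, SE 0.19, adjusted p = 0.0386). THBS1 kept the call in 1 of the other 5 leave-out settings. TBC1D9, KANK1 and PMS1, a mismatch repair gene, rose by log2 fold changes of 0.84, 0.70 and 0.66, with adjusted p-values of 0.0282, 0.0189 and 0.0386 by edgeR. The factors RFX8, MSC, NOL4L and ATOSB, the growth factor ARTN, the cohesin REC8, SPSB1, ZSWIM4 and TCF25 fell by log2 fold changes between -1.08 (RFX8, adjusted p = 0.0459) and -0.47 (TCF25, adjusted p = 0.0149).

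Transcripts of the mitochondrial genome were higher in 12 of 13 cases, but with a spread that edgeR did not pass. The share of counts from the mitochondrial genome was 2.12%, 1.05% and 2.04% at 5% CO2 and 3.18%, 2.91% and 1.55% at 10% CO2, and the lowest library at 10% CO2 lay below the higher 2 at 5%. MT-ND4, a subunit of respiratory complex I, was at 2330.2, 1144 and 2375 CPM at 5% CO2 and 4229, 4082 and 1844 CPM at 10% CO2 (log2 fold change 0.80, SE 0.48, adjusted p = 0.506), and MT-CO1, of cytochrome c oxidase, was at 4596, 2106 and 4412 CPM at 5% CO2 and 7898, 6468 and 3201 CPM at 10% CO2 (log2 fold change 0.66, SE 0.50, adjusted p = 0.599). The median of the 13 protein genes was 0.53, their groups overlapped in every case, none had an unadjusted p under 0.05 by edgeR, and the smallest adjusted p was 0.506 by edgeR and 0.341 by DESeq2. Without replicate 2 at 5% CO2 the median was 0.25, and without replicate 3 at 10% CO2 it was 0.80. The summed level was 75471 ± 23577 TPM at 5% CO2 and 105710 ± 32462 TPM at 10% CO2 (SD, n = 3; exact permutation p = 0.3). Nuclear genes of the same respiratory complexes were flat, with a median of -0.0085 over 41 genes, none called by edgeR (1 unadjusted) or DESeq2, and a range of -0.23 to 0.16.

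**Figure D4:**
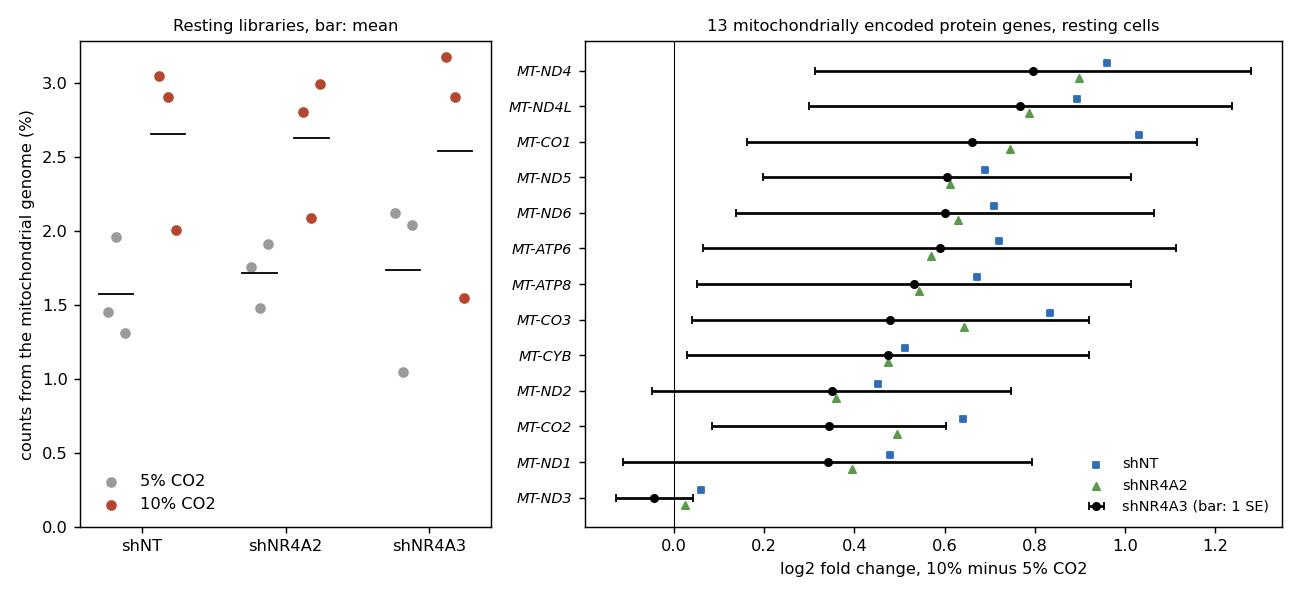
Left, the percentage of counts from the mitochondrial genome in each resting library of the 3 lines, with bars at the mean of 3; right, log2 fold change of 10% over 5% CO2 for the 13 mitochondrially encoded protein genes in resting cells, with 1 SE for shNR4A3. The shNR4A3 libraries spread from 1.05% to 2.12% at 5% CO2 and from 1.55% to 3.18% at 10% CO2, and MT-ND3 is the 1 gene of 13 below 0.

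Other lists held no call by edgeR. Cholesterol synthesis and uptake had 19 of 24 genes negative (median -0.13) and the LXR targets of cholesterol efflux 8 of 10 (median -0.30), and DESeq2 called 2 and 3 of them lower, while by edgeR 9 and 4 had an unadjusted p under 0.05. Glycolysis (21 genes, median -0.052), hypoxia-inducible genes (19, median -0.0084), the proton pump and lysosome (37, median -0.023), NRF2 and redox genes (22, median -0.036) and cell cycle and replication genes (34, median -0.024) were all near 0, and of these DESeq2 called 1, 1, 1, 0 and 2, and 2, 4, 2, 2 and 7 had an unadjusted p under 0.05 by edgeR. The share with such an unadjusted p over all genes tested was 16.7%. Dual-specificity phosphatases (18, median -0.13), cAMP and CREB genes (26, median -0.017), haematopoietic transcription factors (26, median -0.068), ubiquitin genes (23, median -0.058) and genes of mitochondrial DNA maintenance (17, median 0.096) were likewise without a call by edgeR, where unadjusted p-values under 0.05 numbered 7, 5, 5, 7 and 6. DESeq2 called 1, 1, 3, 3 and 2 of them. Of 21 monocyte markers tested none was called by either tool (5 unadjusted by edgeR), and 16 were negative (median -0.15).

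Of 42 tested genes that the study names, 8 were called higher and 7 lower, against 0.559% and 0.57% of all genes tested. The study chose many of the 42 on samples of this series, these libraries among them, so this count is not independent evidence of any direction. The higher ones were SLC16A9, SERPINB2, DPH5, SLC39A14, POLR1A, ALDH1B1, SERPINH1 and PYCR1, and the lower ones ATP2A1, SLC6A6, A4GALT, CYTH2, CD38, DPP8 and SRSF5, all described above. ETS1, a transcription factor, was flat at 67, 71.3 and 66.7 CPM at 5% CO2 and 76.7, 75.5 and 67.5 CPM at 10% CO2 (log2 fold change 0.10, SE 0.082, adjusted p = 0.59), and so was HSF1, the heat shock factor, with a log2 fold change of -0.016 (adjusted p = 0.943). The study reports a rise of ETS-1 protein in nuclei of untransformed THP-1 cells after a longer exposure. Transcript levels after 4 h in shNR4A3 cells are another measure and do not test that rise.

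Whether the response depended on the NR4A3 hairpin was asked by testing the difference of the CO2 response between lines. No gene differed from shNT cells in edgeR's test (412 genes, or 2.33%, had an unadjusted p under 0.05), nor by DESeq2. None differed from shNR4A2 cells either (209 genes, or 1.18%, unadjusted), nor by DESeq2. A miss of the threshold does not show that the lines responded alike, and the size and error of single differences are given below.

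Side by side, the responses had the same sign in the 3 lines, and most were smaller in the other lines. In shNT cells 67 of the 99 higher and 66 of the 101 lower genes had the smaller change, and in shNR4A2 cells 84 and 91. All 99 genes that rose had a positive log2 fold change in resting shNT cells (median 0.48, against 0.52 in shNR4A3 cells) and 30 were called there, and all 101 that fell had a negative one (median -0.45, against -0.49) and 20 were called there. The 50 shared calls were 25% of the 200 and 45.9% of the 109 in shNT cells. In resting shNR4A2 cells the medians were 0.41 and -0.34, also with the same sign in all 200, and 0 of the 200 were called by edgeR, in a comparison with 2 calls in all, 0.0113% of genes tested (1430 genes, or 8.07%, had an unadjusted p under 0.05). The genes were chosen on their size in shNR4A3 cells, which favours the larger value there. SLC16A9 was at 1.52 in shNR4A3 cells and at 1.40 and 1.17 in shNT and shNR4A2 cells, SLC6A6 at -0.86 against -0.65 and -0.69, and JUND at -0.82 against -0.64 and -0.58. For SLC16A9 the difference from shNT cells was 0.11 (SE 0.39, adjusted p = 1), for SLC6A6 -0.21 (SE 0.22, adjusted p = 1) and for MARCKSL1 -0.32 (SE 0.16, adjusted p = 1), all by edgeR. NR4A3 had a log2 fold change of 1.04 in shNR4A3 cells and -1.05 in shNT cells, at counts under 22 in every library, and the difference did not pass (2.09 (SE 0.71, adjusted p = 1)).

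**Figure D5:**
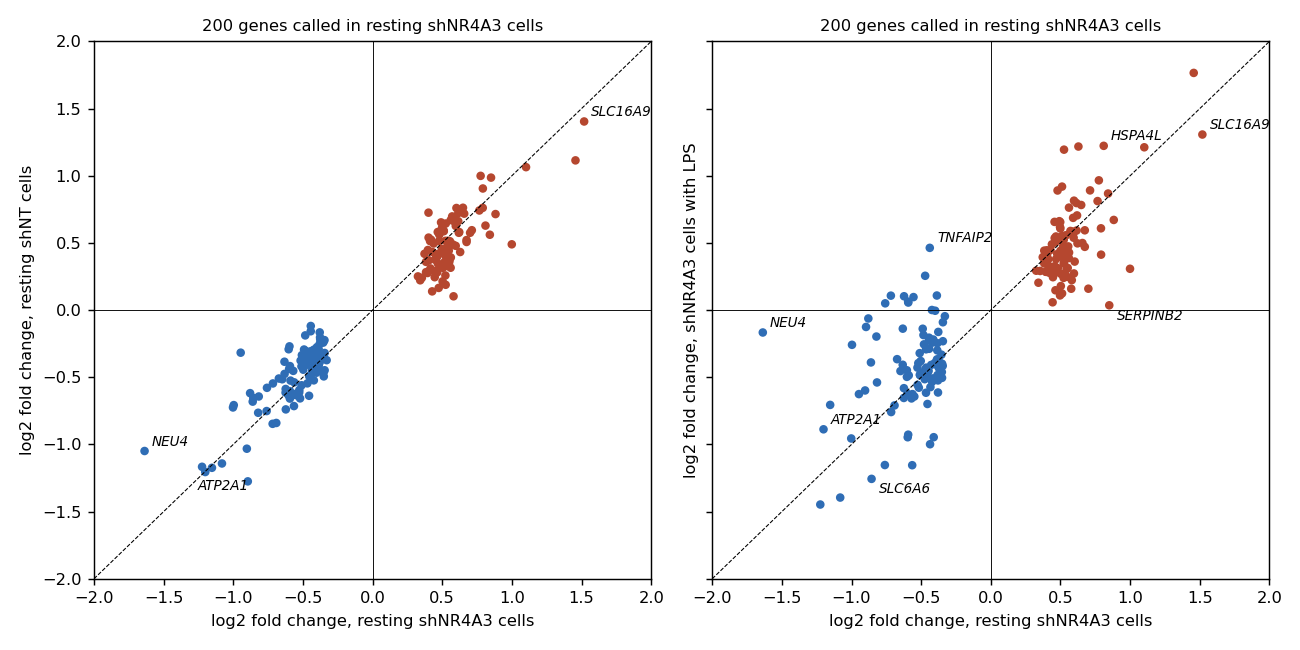
The 200 genes that passed the test in resting shNR4A3 cells, with their log2 fold change of 10% over 5% CO2 there on the x axis and in resting shNT cells (left) or in shNR4A3 cells with LPS (right) on the y axis; the dashed line marks equal values. All 200 points on the left lie in the 2 quadrants of equal sign, and on the right 10 of the 101 lower genes lie above 0.

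With LPS the same line gave 378 calls (2.13% of genes tested), among them 43 of the 99 higher and 35 of the 101 lower genes, which together were 39% of the 200 and 20.6% of the 378. All 99 kept a positive sign (median 0.44), and 91 of 101 kept a negative one (median -0.43). The log2 fold changes of 5 genes, picked after their values were seen, are given in both states, although none passed edgeR's test of the difference. BTG2 was at -0.59 at rest and 0.063 with LPS, RELB at -0.59 and 0.056, BCL3 at -0.72 and 0.11, and TNFAIP2 at -0.44 and 0.46. SERPINB2 was at 0.85 at rest and 0.036 with LPS. In edgeR's test of the difference (LPS minus rest) these gave 0.66 (SE 0.13, adjusted p = 0.589) for BTG2, 0.65 (SE 0.20, adjusted p = 0.831) for RELB, 0.83 (SE 0.21, adjusted p = 0.821) for BCL3, 0.91 (SE 0.31, adjusted p = 0.837) for TNFAIP2 and -0.81 (SE 0.22, adjusted p = 0.827) for SERPINB2. No gene passed that test (995 genes, or 5.62%, had an unadjusted p under 0.05), and the smallest p belonged to LGR4, with 1.24 (SE 0.19, adjusted p = 0.0745). DESeq2 called 8 genes: LGR4, POU2F2, LTB, CD44, USP12, SIK3 and BTG2, all more positive with LPS, and CAMK2G, more negative.

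The starts of some of these genes carry binding letters of factors tied to the pathways above, and 9 are shown because they hold 1 of 4 such motifs. The 200 bases before the start site are printed 5′ to 3′ on the gene's strand, from RefSeq on GRCh38.p14, with motifs in capitals. The motifs are the E-box CACGTG read by MYC, MAX and MXD4, the inverted heat shock element GAANNTTC, the cAMP response element TGACGTCA, and the NBRE of the NR4A receptors, AAAGGTCA or its complement TGACCTTT. A match is a run of letters and not a measured binding site, and the 9 genes were picked after their values and matches were known.
SLC16A9 (chr10:59710080-59710279, minus strand): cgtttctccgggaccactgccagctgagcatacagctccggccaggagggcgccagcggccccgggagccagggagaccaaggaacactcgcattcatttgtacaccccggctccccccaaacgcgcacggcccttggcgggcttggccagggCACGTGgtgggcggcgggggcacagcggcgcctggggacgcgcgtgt
NAT10 (chr11:34105429-34105628, plus strand): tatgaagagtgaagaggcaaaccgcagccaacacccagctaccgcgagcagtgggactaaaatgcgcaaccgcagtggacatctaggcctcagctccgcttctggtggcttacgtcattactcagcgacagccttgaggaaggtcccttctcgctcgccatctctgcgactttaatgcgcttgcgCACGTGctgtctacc
HSPD1 (chr2:197500275-197500474, minus strand): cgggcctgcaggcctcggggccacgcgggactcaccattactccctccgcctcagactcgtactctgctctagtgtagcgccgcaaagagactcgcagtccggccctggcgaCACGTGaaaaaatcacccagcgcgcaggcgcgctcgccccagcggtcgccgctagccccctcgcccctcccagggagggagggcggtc
ALDH18A1 (chr10:95656712-95656911, minus strand): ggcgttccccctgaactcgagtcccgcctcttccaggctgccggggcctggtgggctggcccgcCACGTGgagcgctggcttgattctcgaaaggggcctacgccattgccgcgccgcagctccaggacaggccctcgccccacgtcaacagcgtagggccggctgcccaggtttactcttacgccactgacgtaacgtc
SERPINH1 (chr11:75562053-75562252, plus strand): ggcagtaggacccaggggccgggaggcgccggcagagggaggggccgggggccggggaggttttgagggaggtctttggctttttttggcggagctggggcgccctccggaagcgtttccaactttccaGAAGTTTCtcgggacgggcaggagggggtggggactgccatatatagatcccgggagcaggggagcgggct
POLR1A (chr2:86105887-86106086, minus strand): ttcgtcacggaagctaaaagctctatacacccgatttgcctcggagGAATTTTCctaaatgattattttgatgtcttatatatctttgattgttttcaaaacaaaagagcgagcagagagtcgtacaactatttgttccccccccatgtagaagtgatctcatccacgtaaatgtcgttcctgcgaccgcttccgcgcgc
JUND (chr19:18281623-18281822, minus strand): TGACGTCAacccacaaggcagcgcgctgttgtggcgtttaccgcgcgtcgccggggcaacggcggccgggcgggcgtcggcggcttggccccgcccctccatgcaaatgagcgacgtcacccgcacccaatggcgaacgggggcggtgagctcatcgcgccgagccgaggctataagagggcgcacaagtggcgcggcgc
MAFF (chr22:38201794-38201993, plus strand): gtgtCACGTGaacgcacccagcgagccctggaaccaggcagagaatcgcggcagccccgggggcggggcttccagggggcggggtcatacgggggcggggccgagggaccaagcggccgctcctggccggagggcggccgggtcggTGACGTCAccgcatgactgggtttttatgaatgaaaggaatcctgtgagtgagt
DPH5 (chr1:101025785-101025984, minus strand): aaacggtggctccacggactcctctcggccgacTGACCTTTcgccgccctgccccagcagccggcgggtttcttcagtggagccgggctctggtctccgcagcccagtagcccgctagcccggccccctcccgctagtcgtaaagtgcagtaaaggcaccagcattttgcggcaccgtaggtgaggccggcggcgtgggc

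Of these, SLC16A9, NAT10, HSPD1 and ALDH18A1 rose and hold an E-box, SERPINH1 and POLR1A rose and hold the heat shock letters, JUND and MAFF fell and hold a cAMP response element (MAFF an E-box too), and DPH5 rose and holds an NBRE, the 1 found in the 81 promoters searched of genes that rose. Over windows of 250 bases before to 50 bases after the start, on both strands, an E-box was in 14 of 81 promoters of genes that rose (17.3%), 10 of 77 of those that fell (13%) and 9.74% of 12091 promoters of genes tested. The cAMP response element was in 4.94%, 6.49% and 3.04%, its shorter form TGACG, which the longer one contains, in 42.0%, 45.5% and 33.2%, and the heat shock letters were in 4.94%, 3.90% and 4.77%. The NBRE was in 1 of 81, 0 of 77 and 0.777%. The ETS letters CCGGAAGT were in 7.41%, 7.79% and 8.10%, CCAAT in 32.1%, 42.9% and 36.3%, GGGCGG in 72.8%, 70.1% and 67.8%, and the ATF4 composite TGATGNAA in 1 of 81, 0 of 77 and 1.80%.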

How the data were processed

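Messenger RNA was measured in 36 libraries of 12 conditions, 3 replicates each, and the 6 libraries of resting shNR4A3 cells are reported. Per the paper's methods, Trimmomatic v.0.36 was used by the authors for trimming, STAR v.2.5.2b for alignment (GRCh38) and featureCounts (Subread v.1.5.2) for counts per gene. The deposited values are raw, whole-number counts, 1 file per library. The sources used here do not name the annotation release or the strandedness of the counting, nor say if fragments or single reads were counted, so overlapping and antisense genes cannot be told apart. Of 57500 gene IDs, 56410 (98.1%) were matched to a symbol.

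Genes passing edgeR's filterByExpr (minimum count 10, minimum total 15) over all 36 libraries were tested, 17720 in all, using TMM scaling, the robust quasi-likelihood F test of edgeR (4.0.16, on R 4.3.3 with limma 3.58.1) and Benjamini-Hochberg adjustment. Called means an adjusted p under 0.05. Each comparison used its own 6 libraries, and a difference of responses was an interaction in 12. The SE is the size of the log2 fold change over the square root of F. CPM is scaled to library size with TMM factors, and TPM uses the gene lengths in the files. The paper's methods name DESeq2, run as an alternative (1.42.0, Wald test). Scripts were tested on simulated data, where 11.1% of edgeR's calls in the main comparison were false. For the difference from shNT cells, edgeR called 0% of simulated 1.25-fold, 14% of 1.5-fold and 66% of 2-fold changes. Total counts were 16171161 to 23929138 a library, and the common biological coefficient of variation was 9.67% over the 6 libraries.

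The 52 gene lists and the rule for named genes were chosen with earlier results of these data known, and lists are described by counts and medians, with no set test. The rule took the NR4A genes, called list members with up to 4 abundant others of each list, the 15 largest calls with at least 5 CPM and the 8 calls of smallest adjusted p in each direction, the genes of smallest p in each difference, and the genes the study names. In a library pair of a group the counts differed by 7.06 to 16.7 times sampling noise (chi-square per degree of freedom), so no library was a copy. Same-numbered libraries at 5% and 10% CO2 had correlated deviations of 0.246, 0.104 and 0.0444 over genes tested. Over the 9423 genes with a mean of at least 10 CPM they were 0.502, 0.161 and 0.1003. As 1 of the 3 was under 0.1 over genes tested, the test was kept without a block, and the pairing was not settled. Alternatives were RLE factors, library size only, TMM without mitochondrial genes, DESeq2, no filter, a filter at 1 CPM, a block for the replicate number, all 36 libraries in 1 fit, an adjusted p of 0.01 and each library left out.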

Additional observations from a re-analysis of the deposited data

How the results depend on the processing

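The count of 200 calls moved with the block, the low-count filter, the test and the libraries. It was 550 with DESeq2 (of the 12100 genes given an adjusted p), 823 without the low-count filter, 107 in 1 fit to all 36 libraries and 11 at an adjusted p under 0.01, and it ran from 0 to 365 with each library left out. RLE factors, library size only, TMM without mitochondrial genes and a filter at 1 CPM gave 210 to 254. With the replicate number as a block the count was 1073, and whether the numbers pair the libraries was not settled. The correlation was under 0.1 for replicate 3 over all genes tested, but 0.502, 0.161 and 0.1003 for the 3 numbers over the 9423 genes with a mean of at least 10 CPM, and on both sets replicate 3 at 10% CO2 correlated better with replicate 2 at 5% CO2. Of 74 named genes that were called, all 74 kept the call with RLE factors, TMM without mitochondrial genes, no filter, the 1 CPM filter and the block, 73 with library size only, 73 of the 73 given an adjusted p by DESeq2 and 29 in the fit to 36 libraries. Their calls kept in the settings that left out 1 library numbered 66, 28 and 55 without replicates 1, 2 and 3 at 5% CO2 and 35, 0 and 44 without those at 10% CO2. None of them reversed in any setting, which their selection on these same libraries made likely.

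The difference from shNT or shNR4A2 cells gave 0 calls in every alternative run. The difference between LPS and rest, 0 by edgeR, was 8 with DESeq2, 89 without the filter and 1 in the fit to 36 libraries, and 0 to 1 with each library left out (LGR4 without replicate 1 at 5% CO2 or replicate 1 at 10% CO2 with LPS). The log2 fold change of NR4A3 against shNT cells at 5% CO2 was -3.03 to -2.05 with each library left out and lost its call without replicate 2 of the shNT cells (-2.32, edgeR adjusted p = 0.0516).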

Other observations

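Of the 200 genes that passed edgeR's test, 151 were in no gene list, 73 of them higher and 78 lower at 10% CO2. The ones below were chosen after their values were seen. Carriers of folate, iron and haem were among the higher ones: SLC46A1, the proton-coupled folate carrier, was at 2.22, 2.48 and 2.0 CPM at 5% CO2 and 5.34, 4.79 and 3.32 CPM at 10% CO2 (log2 fold change 1.0, SE 0.23, adjusted p = 0.046), TFRC, the transferrin receptor, at 226, 227 and 248 CPM at 5% CO2 and 305, 302 and 289 CPM at 10% CO2 (log2 fold change 0.35, SE 0.072, adjusted p = 0.0287), and FLVCR1 at 13.9, 12.8 and 14.5 CPM at 5% CO2 and 18, 22.5 and 18.8 CPM at 10% CO2 (log2 fold change 0.52, SE 0.12, adjusted p = 0.0495). PDCD11, a factor of ribosomal RNA processing outside the list, was at 109.9, 115 and 108 CPM at 5% CO2 and 152, 166 and 141 CPM at 10% CO2 (log2 fold change 0.46, SE 0.08, adjusted p = 0.0189), and WDR3, REXO4 and CCDC86, also nucleolar, had log2 fold changes of 0.40, 0.41 and 0.40. MAF1, the repressor of RNA polymerase III, was at 154, 176 and 158 CPM at 5% CO2 and 131, 126 and 127 CPM at 10% CO2 (log2 fold change -0.35, SE 0.076, adjusted p = 0.0391), while POLR3G, a subunit of that polymerase, rose. In the 5 leave-out settings other than the loss of replicate 2 at 10% CO2, MAF1, POLR3G and SLC46A1 each kept the call in 1. TFRC kept it in 2 and FLVCR1 in 0.

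On the lower side, OSM, the cytokine oncostatin M, was at 5.82, 5.15 and 5.5 CPM at 5% CO2 and 2.52, 2.58 and 3.42 CPM at 10% CO2 (log2 fold change -0.95, SE 0.19, adjusted p = 0.0287), IL10RA, the interleukin-10 receptor, at 31.4, 28 and 26.2 CPM at 5% CO2 and 20.6, 15.4 and 19.7 CPM at 10% CO2 (log2 fold change -0.62, SE 0.12, adjusted p = 0.0282), and RIPK1, a kinase of TNF receptor signalling, at 32.3, 33.1 and 30.8 CPM at 5% CO2 and 22.5, 19 and 22 CPM at 10% CO2 (log2 fold change -0.60, SE 0.10, adjusted p = 0.0189). MIR22HG, the host transcript of a microRNA, was at 5.76, 6.42 and 4.61 CPM at 5% CO2 and 2.89, 2.13 and 2.59 CPM at 10% CO2 (log2 fold change -1.15, SE 0.20, adjusted p = 0.0189). PPIF, the mitochondrial cyclophilin of the permeability pore, had the highest level per length (TPM) of the genes that fell, at 459.6, 459.7 and 441 CPM at 5% CO2 and 371, 337 and 375 CPM at 10% CO2 (log2 fold change -0.33, SE 0.072, adjusted p = 0.0385). Signalling genes on that side included SRC (-0.56), SHC1 (-0.37), MAP2K7 (-0.44) and CFLAR (-0.39), given as log2 fold changes.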
